A study of Drosophila melanogaster with 17 samples.

Results

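The subunits of the proteasome were 48 genes of 23925 features listed in the head table, the gut table or both. They were all the genes whose FlyBase symbol begins with Prosalpha, Prosbeta, Rpn or Rpt and a number. The 32 whose symbol has no further suffix were taken as the ubiquitous subunits, and the 16 whose symbol ends in T or R, with or without a digit 1 or 2, as the testis paralogues. These classes rest on the symbol alone, and the levels of Prosalpha1R did not follow those of testis markers. Polyadenylated RNA came from mated male Drosophila melanogaster kept at 25 °C and 60% humidity under 12 h of light and 12 h of dark, 20 to a vial, and sampled at ZT8, which is 8 h after lights on. The heads were of orco2 flies, which carry a mutant allele of the odorant co-receptor gene Orco, and of w1118 flies, which lack white function, each at day 40 and at day 3 with 2 libraries a group. The guts were of per01 flies, mutant for the clock gene period, of orco2 flies and of w1118 flies, all at day 40 with 3 libraries a group. The number of flies behind a library is not given in the sources used here.

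The proteasome is the protease that breaks down proteins tagged with ubiquitin. Its barrel-shaped core is built from alpha rings, encoded by the Prosalpha genes, and beta rings, encoded by the Prosbeta genes, in which Prosbeta1, Prosbeta2 and Prosbeta5 carry the cutting sites. A regulatory cap sits on the core: the Rpt ATPases unfold substrates and feed them in, and the Rpn proteins hold the cap together, bind ubiquitin (Rpn10 and Rpn13) or remove it (Rpn11). Drosophila also has duplicated subunit genes that are known for expression in the testis, where germ cells build proteasomes with them. Prosalpha6T, 1 of these duplicates, is needed for sperm development.

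Total counts ran from 25792664 to 41693684 per library. Levels are given as FPKM, which here means CPM after TMM scaling within a tissue, divided by exon length in kb, or as CPM alone. Where guts are tested against heads, FPKM come from TMM scaling over both tissues together. Those values differ from the ones given for the same libraries elsewhere. A gene is said to have risen or fallen only where its Benjamini-Hochberg adjusted p from the edgeR quasi-likelihood test was under 0.05, and sizes are log2 fold changes ± SE. Each p-value reflects only how far libraries within groups vary, and that variation may be technical. The spread was estimated over all groups of a fit, so groups outside a comparison enter its p-value too. In such bulk samples fewer cells of a type and less RNA per cell cannot be told apart. Orco had 24 to 46 counts in orco2 heads, against 90 to 251 in w1118 heads. The gene w, which w1118 flies lack in function, had 525 to 934 counts in orco2 heads against 0 to 13 in w1118 heads, so those genotypes differ at more than 1 locus. In guts it had 64 to 149 counts in per01, 311 to 571 in orco2 and 0 to 28 in w1118. Because per01 carries a premature stop codon, counts of per do not check that label. In guts per had 673 to 783 counts in per01, 364 to 535 in orco2 and 1415 to 3086 in w1118. In heads it had 1411 to 1917 counts in orco2 and 4414 to 6344 in w1118. It fell in orco2 against w1118 in guts (-2.56 ± 0.37, adjusted p = 0.00524) and in heads at day 40 (-1.82 ± 0.13, adjusted p = 0.0003) and day 3 (-1.21 ± 0.12, adjusted p = 0.0014). The 16 head markers summed to 112 to 321 CPM in guts and 63313 to 104249 CPM in heads.

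Each of the 32 ubiquitous subunits was read in all 17 libraries and passed the filter on low counts in both tissues. In every group they lay close together apart from Prosalpha1, the alpha subunit with the lowest level. Of the other 31, in orco2 heads at day 40 the group means ran from 38.9 FPKM for Rpn2 to 112 FPKM for Prosalpha3, and the median of all 32 was 70.6 FPKM. In w1118 heads at day 3 they ran from 26.2 FPKM for Rpn2 to 64.9 FPKM for Prosbeta5, with a median of 41.5 FPKM. In guts the lowest of the 31 was Rpn2 in per01 with 45.6 FPKM, Rpn1 in orco2 with 43.6 FPKM and Rpn9 in w1118 with 40.4 FPKM, and the highest was Prosalpha2 in all 3, with 146 FPKM in per01, 133 FPKM in orco2 and 123 FPKM in w1118. Leaving out Prosalpha1, the level of a subunit thus differed at most 3.21-fold within any group. The core subunits stood above the cap in each group: in orco2 heads at day 40 the median was 79.3 FPKM over the alpha genes and 87.8 FPKM over the beta genes, next to 64.5 FPKM over Rpt and 52.7 FPKM over Rpn genes. Prosalpha1 averaged 9.12 FPKM in per01, 9.26 FPKM in orco2 and 3.20 FPKM in w1118 guts, and 5.37 FPKM in orco2 and 6.14 FPKM in w1118 heads at day 40. It lies on chromosome 2R (7827303 to 7828678, minus strand, dm6) and 1.74 kb from its paralogue Prosalpha1R, and how reads shared by the copies were counted is not given in the sources used here, so the values of both are uncertain. Exons of 13 ubiquitous subunits overlap a gene on the other strand, among them Prosbeta3, Prosbeta4, Prosbeta5 and Rpt2 below, and since the strand setting is not given either, their counts could hold reads of that gene.

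**Figure D1:**
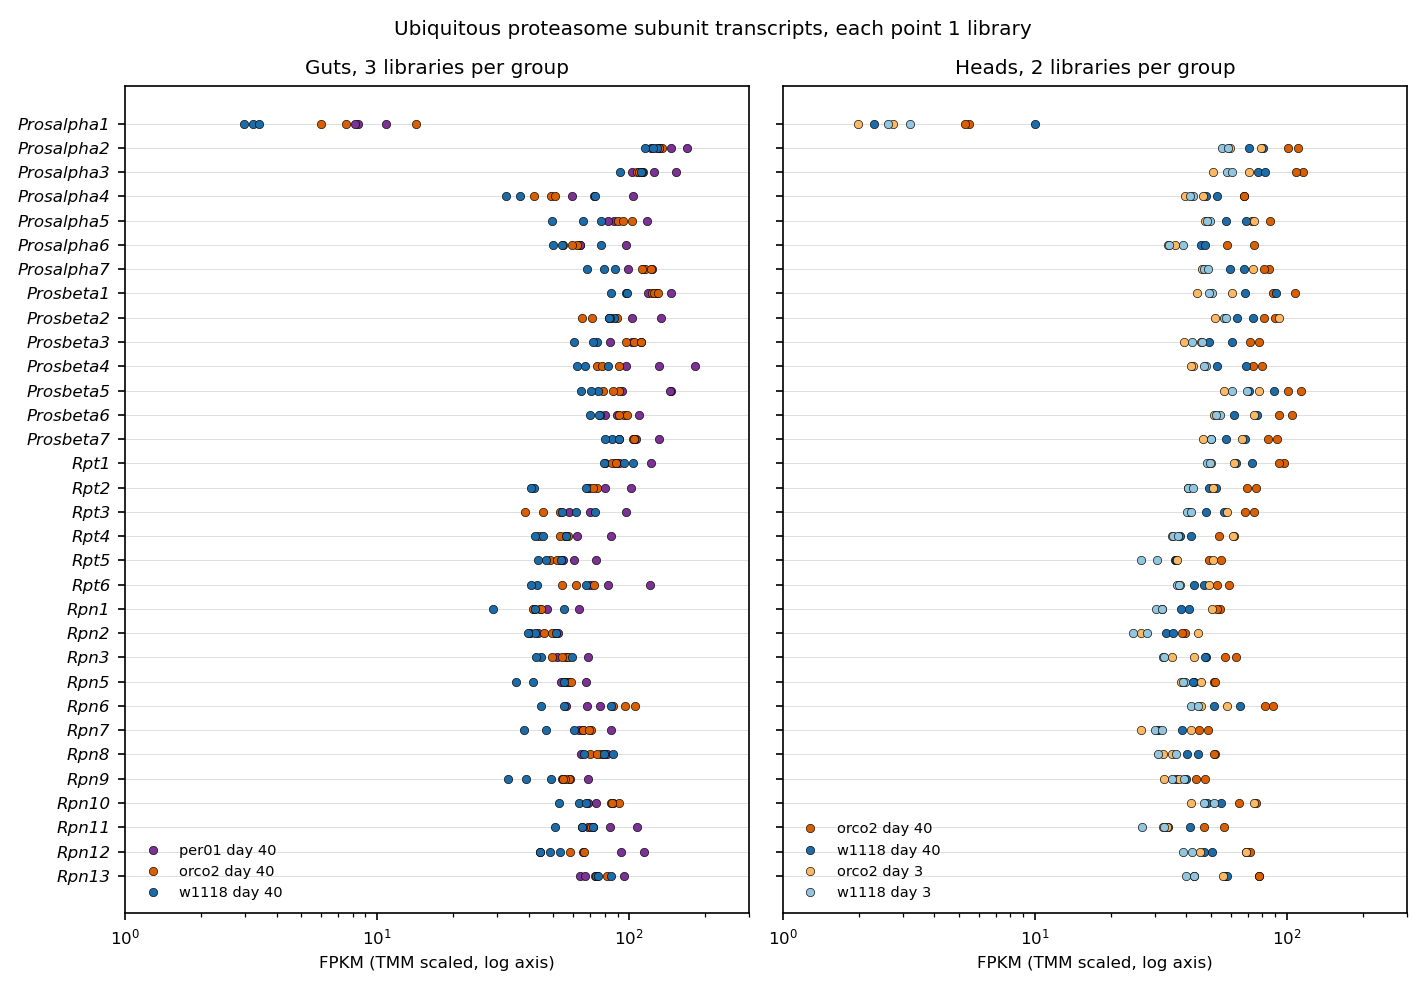
Level of each ubiquitous subunit (rows) in guts (left) and heads (right), as FPKM on a log axis, with each point 1 library coloured by group. All but Prosalpha1 lie between 24.6 and 183 FPKM, and in heads the 2 orco2 day 40 points are the 2 highest in 23 of the 32 rows.

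With age, subunit transcripts were higher in orco2 heads, and 17 of the 32 rose between day 3 and day 40 while 0 fell. All 32 had a log2 fold change above 0, with a median of 0.62 (range 0.14 to 1.19), against a median of -0.0089 over the 12243 genes tested. By the same test 12.8% of all genes rose and 11.4% fell. In 25 of the 32 both day 40 libraries lay above both day 3 libraries, as they did in 31.1% of all genes tested. The summed level of the 32 was 3138 and 2891 CPM in orco2 heads at day 40, against 1760.4 and 2403 CPM at day 3.

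In the core, 4 of 7 alpha genes and 6 of 7 beta genes rose, with medians of 0.64 and 0.68. Prosalpha6 (2L, 10221351 to 10222546, plus strand) stood at 74.2 and 57.9 FPKM in orco2 heads at day 40, against 36.1 and 33.7 FPKM at day 3 (0.92 ± 0.14, adjusted p = 0.00392). The libraries of the 2 ages did not overlap, and Prosalpha2, Prosalpha3 and Prosalpha4 rose as well. Prosbeta4 had 80.0 and 73.3 FPKM at day 40, against 42.4 and 41.5 FPKM at day 3 (0.87 ± 0.14, adjusted p = 0.00456). Prosbeta3 had 77.4 and 71.6 FPKM at day 40, against 45.7 and 38.9 FPKM at day 3 (0.82 ± 0.14, adjusted p = 0.00622). In both genes the ages did not overlap. Prosalpha1 had the largest fitted difference of the 32 without passing (1.19 ± 0.59, adjusted p = 0.178). Of the 3 genes for the cutting subunits, Prosbeta1 (0.91 ± 0.19, adjusted p = 0.0132) and Prosbeta5 (0.68 ± 0.18, adjusted p = 0.0294) rose, whereas Prosbeta2, with 89.9 and 81.2 FPKM at day 40 and 51.8 and 93.5 FPKM at day 3, did not pass (0.24 ± 0.24, adjusted p = 0.509). Prosbeta6 and Prosbeta7 were the other beta genes that rose, and Prosalpha5 and Prosalpha7 were the other alpha genes that did not pass. In Prosbeta2 the ages overlapped, and the second day 3 library was the highest of the 4.

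In the cap, 2 of 6 Rpt and 5 of 12 Rpn genes rose, with medians of 0.45 and 0.42. Rpt1, an ATPase subunit, had 97.1 and 93.2 FPKM in orco2 heads at day 40, against 50.1 and 61.9 FPKM at day 3 (0.77 ± 0.13, adjusted p = 0.00606). The ATPase gene Rpt2 rose too, and so did Rpn3, Rpn6 and Rpn8 of the scaffold, the ubiquitin receptor gene Rpn13 and the deubiquitinase gene Rpn11. Rpn13 had 77.9 and 77.8 FPKM at day 40, against 43.0 and 55.7 FPKM at day 3 (0.66 ± 0.13, adjusted p = 0.0114). Rpn11 had 56.2 and 47 FPKM at day 40, against 32.4 and 33.4 FPKM at day 3 (0.65 ± 0.15, adjusted p = 0.0196), and in neither did the ages overlap. Rpt3, Rpt4, Rpt5, Rpt6, Rpn1, Rpn2, Rpn5, Rpn7, Rpn9, Rpn10 and Rpn12 did not pass. The scaffold gene Rpn2 was the least different of the 32, with 39.3 and 38.4 FPKM at day 40, against 26.4 and 44.4 FPKM at day 3 (0.14 ± 0.21, adjusted p = 0.682). The 2 day 3 libraries of orco2 stood apart, with replicate 2 above replicate 1 in 28 of the 32, as in Rpn2. Of all members 18 rose with every library in, which adds the paralogue Prosalpha1R to the 17. The number was 1 without orco2 day 40 replicate 1, 10 without day 40 replicate 2, 16 without day 3 replicate 1 and 32 without day 3 replicate 2. The share of all genes called moved as well, to 5.93%, 10.8%, 28.0% and 34.6% in these 4 fits, from 24.2% with every library. Where a library is left out of a group of 2, the remaining one is assumed to vary like the other groups.

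Ageing w1118 heads showed the same direction with fewer calls. Only Rpn3, Rpn13 and Rpt1 rose and 0 fell, although all 32 ubiquitous subunits had a log2 fold change above 0, with a median of 0.34 against 0.041 over all genes tested. In w1118 heads 8.56% of all genes rose and 7.23% fell, so the share of members called was close to that of all genes. The libraries of the 2 ages did not overlap, with day 40 higher, in 28 of the 32 and in 36.4% of all genes. Rpn3 had 47.7 and 47.5 FPKM at day 40, against 32.2 and 32.7 FPKM at day 3 (0.55 ± 0.12, adjusted p = 0.0208). Rpn13 had 57.0 and 58.1 FPKM at day 40, against 39.7 and 43.0 FPKM at day 3 (0.48 ± 0.13, adjusted p = 0.0487). Rpt1 had 62.8 and 72.6 FPKM at day 40, against 48.3 and 49.7 FPKM at day 3 (0.47 ± 0.13, adjusted p = 0.0496). In each of these genes both old libraries exceeded both young ones. The 3 calls became 1 without w1118 day 40 replicate 1 and 0 without any 1 of the other 3 w1118 libraries, and 18 when the spread was taken from the 4 w1118 libraries alone. That last fit called 33.1% of all genes, against 15.8% with the spread from all heads, and the 4 fits without a library called 3.44% to 7.24%.

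Whether the difference with age was larger in orco2 than in w1118 was tested as an interaction, and 0 of the 39 members tested passed. By this test 0.00817% of all genes passed, which is 1 gene. The median interaction over the ubiquitous subunits was 0.22, with 29 of 32 above 0, and 4 had an unadjusted p under 0.05. DESeq2 and limma-voom also called 0. Without orco2 day 3 replicate 2, 2 members passed, both of them higher, where 3.14% of all genes passed. The 2 age comparisons thus differ in their number of calls, while a difference between the genotypes in the change with age was not called for any member. Prosalpha6 had an interaction of 0.57 ± 0.20 and Prosbeta4 one of 0.51 ± 0.20, both chosen after their values were seen.

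**Figure D2:**
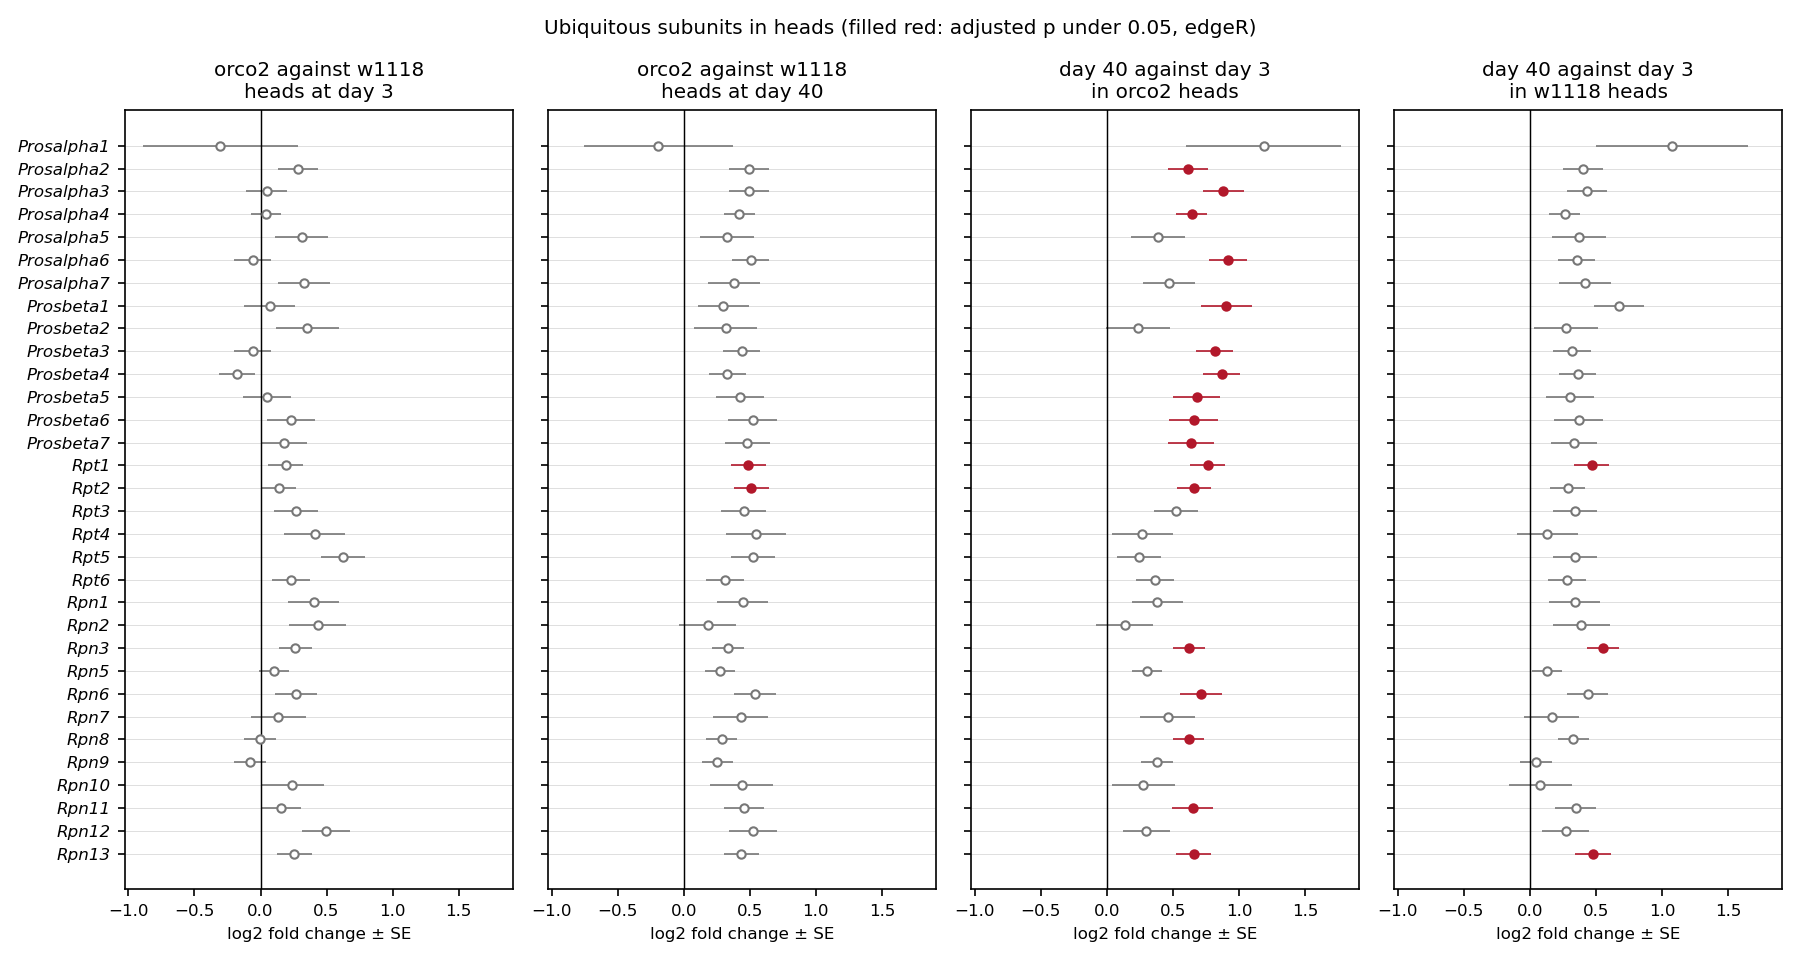
Log2 fold change of each ubiquitous subunit ± SE in the 4 head comparisons, with the genotype or age named first over the other (0 is the black line). Filled red points have an adjusted p under 0.05 by edgeR, and all points of the 2 age panels lie above 0.

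Between the genotypes, the ubiquitous subunits were higher in orco2 heads at day 40 by a median of 0.44, against -0.0017 over all genes. Only the ATPase genes Rpt2 and Rpt1 passed the test, and 0 fell, where 8.06% of all genes rose and 4.89% fell, so the share called was no larger than among all genes. Rpt2 had 75.4 and 69.3 FPKM in orco2 heads, against 49.1 and 52.3 FPKM in w1118 heads (0.51 ± 0.13, adjusted p = 0.0407). Rpt1 had 97.1 and 93.2 FPKM in orco2 heads, against 62.8 and 72.6 FPKM in w1118 heads (0.49 ± 0.13, adjusted p = 0.0476). Yet in 30 of the 32 genes both orco2 libraries lay above both w1118 libraries, which held for 33.2% of all genes. The 2 others were Prosalpha1, with 5.47 and 5.28 FPKM in orco2 and 2.29 and 9.99 FPKM in w1118, and Prosbeta1, with 107 and 88.2 FPKM in orco2 and 68.6 and 90.3 FPKM in w1118. Of all 8 head libraries, the 2 of orco2 at day 40 were the 2 highest in 23 of the 32 genes and in 17.4% of all genes. An unadjusted p under 0.05 was reached by 22 of the 32. Both calls were lost when any 1 of the 4 libraries was left out and when libraries were scaled to their totals alone (0 called), while 25 of the 39 members tested passed with the spread taken from these 4 libraries alone. Of all genes, 2.47% to 5.67% were called without 1 library, 17.4% with library totals and 27.1% with these 4 libraries alone, against 13.0% in the test above.

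At day 3 the difference was smaller, with 0 of the 32 called by edgeR and 2 at an unadjusted p under 0.05, while DESeq2 called 1 and limma-voom 0. The median was 0.21, against 0.015 over all genes, of which 4.85% rose and 2.43% fell. Both orco2 libraries exceeded both w1118 libraries in 8 of the 32, as in 25.8% of all genes. Rpt5, an ATPase gene with 36.6 and 51.1 FPKM in orco2 heads and 26.5 and 30.5 FPKM in w1118 heads, came nearest to the threshold (0.62 ± 0.17, adjusted p = 0.0649). The 2 orco2 libraries differed from each other, and the summed level was 1760.4 and 2403 CPM in the 2 orco2 libraries, against 1765 and 1813 CPM in w1118. Without replicate 2 the median was -0.055, and without replicate 1 it was 0.41 and 17 members passed (16 ubiquitous subunits higher, 1 paralogue lower), as did 25.1% of all genes.

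Markers of fat body, a tissue of the head capsule, differed between the same groups. The 12 of them summed to 9816 and 8399 CPM in orco2 heads at day 40, 3625 and 4508 CPM in w1118 heads at day 40, 4956 and 6730.2 CPM in orco2 heads at day 3 and 1442 and 1855 CPM in w1118 heads at day 3, and none was at 0 in all heads. Of these counts 89.9% fell on apolpp, the lipoprotein gene, so the sum follows that gene. Of the 11 tested, 5 rose with age in orco2 and 9 in w1118, and 3 rose and 1 fell between the genotypes at day 40, while 6 rose between them at day 3. Of all genes, 12.8% rose with age in orco2 and 8.56% in w1118. Between the genotypes 8.06% rose and 4.89% fell at day 40, and 4.85% rose at day 3. The 18 gut markers summed to 679 and 636 CPM in orco2 heads at day 40, 157 and 673 CPM in w1118 heads at day 40, 701 and 18.1 CPM in orco2 heads at day 3 and 23.9 and 27.5 CPM in w1118 heads at day 3, with 2 (deltaTry and LManV) at 0 in all 8 heads and 14 at a median under 1 CPM. Here the amylase genes Amy-p and Amy-d held 40.9% and 28.8% of the counts, whereas alphaTry, betaTry, Jon65Aiii and Jon65Aiv each had 0 counts in 6 of the 8. The digestive enzyme gene alphaTry was above 10 CPM in orco2 day 3 replicate 1 and w1118 day 40 replicate 2. Without these 2 libraries, added as an alternative after the data were seen, 30 members passed between genotypes at day 40 (29 ubiquitous subunits higher, 1 paralogue lower), 20 at day 3, 20 with age in orco2 and 7 with age in w1118. The same fits called 28.1% of all genes between genotypes at day 40, 30.0% at day 3, 32.6% with age in orco2 and 22.3% with age in w1118, and the members' 7 of 39 in the last is no larger a share than that of all genes. The part of fat body or gut RNA in the subunit differences was not tested.

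Genes that work with the proteasome were read in the same heads. Of 9 tested partner and assembly genes, 3 rose with age in orco2 heads (Pomp, the shuttle gene Ubqn and the core activator gene REG) and 0 in w1118 heads, with medians of 0.25 and 0.18. Of all genes, 12.8% rose with age in orco2 heads and 8.56% in w1118 heads. These counts do not test a difference between the genotypes. Pomp, the chaperone that assembles the core, had 71.8 and 64.2 CPM in orco2 heads at day 40, 43.5 and 49.9 CPM in w1118 heads at day 40, 42.3 and 36.5 CPM in orco2 heads at day 3 and 38.5 and 41.3 CPM in w1118 heads at day 3. The 2 orco2 libraries at day 40 were the highest, and Pomp rose with age in orco2 (0.79 ± 0.13, adjusted p = 0.00481) and between genotypes at day 40 (0.54 ± 0.13, adjusted p = 0.0319).

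In the Cnc pathway, named for the fly member of the NRF family of transcription factors that in mammals and flies act on subunit genes, 3 of 6 genes rose with age in orco2 heads (ref(2)P, the shuttle protease gene rngo and cnc) and 2 in w1118 heads (cnc and rngo). The gene cnc itself had 321 and 315 CPM in orco2 heads at day 40, 315 and 329 CPM in w1118 heads at day 40, 221 and 201 CPM in orco2 heads at day 3 and 205 and 209.6 CPM in w1118 heads at day 3. All 4 old libraries lay above all 4 young ones (0.59 ± 0.10, adjusted p = 0.00604 in orco2, and 0.63 ± 0.10, adjusted p = 0.00629 in w1118). The gene ref(2)P, the fly p62 that carries ubiquitinated proteins to autophagy, rose with age in orco2 (0.94 ± 0.12, adjusted p = 0.00199) and was higher in orco2 than in w1118 at day 40 (412 and 394 CPM in orco2 against 276 and 304 CPM in w1118, 0.47 ± 0.12, adjusted p = 0.0384). Among 9 ubiquitin and segregase genes, 4 rose with age in orco2 and 2 in w1118, p47 and RpS27A in both. The counts of both lists stand next to 12.8% of all genes that rose with age in orco2 and 8.56% in w1118. Here p47 encodes a cofactor of the segregase TER94, and RpS27A a ribosomal protein fused to ubiquitin. The polyubiquitin gene Ubi-p5E was higher in orco2 at both ages: it had 464 and 437 CPM in orco2 heads, against 119.7 and 139 CPM in w1118 heads at day 40 (1.80 ± 0.18, adjusted p = 0.00113), and 429 and 311 CPM in orco2 heads, against 135 and 164 CPM in w1118 heads at day 3 (1.30 ± 0.18, adjusted p = 0.00433). None of the genes in these 3 lists fell in the 4 head comparisons, where 2.43% to 11.4% of all genes fell.

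In orco2 guts at day 40, 3 of 32 ubiquitous subunits rose against w1118 guts and 0 fell, where 11.5% of all genes rose and 15.1% fell, so the share called was no larger than among all genes. They were Prosalpha1, the uncertain gene above, Prosalpha7 and Prosbeta3. Prosalpha7, an alpha ring subunit, had 116, 113 and 122 FPKM in orco2 guts, against 79.4, 88.2 and 67.8 FPKM in w1118 guts (0.58 ± 0.18, adjusted p = 0.0455). Prosbeta3, a beta ring subunit without a cutting site, had 97.0, 104 and 112 FPKM in orco2 guts, against 74.7, 71.7 and 60.4 FPKM in w1118 guts (0.60 ± 0.19, adjusted p = 0.0456). Prosalpha1 had 14.2, 7.54 and 6.01 FPKM in orco2 guts, against 2.97, 3.22 and 3.42 FPKM in w1118 guts (1.53 ± 0.37, adjusted p = 0.022). The groups did not overlap in these 3 or in 12 others with orco2 higher, which makes 15 of 32, next to 35.4% of all genes. The median was 0.21, against 0.058 over all genes.

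Of the 32 log2 fold changes 25 were above 0. The ATPase gene Rpt3 was lowest, with 53.0, 38.5 and 45.6 FPKM in orco2 guts and 73.6, 61.7 and 54.3 FPKM in w1118 guts (-0.47 ± 0.25, adjusted p = 0.162). It is the single gene of the 32 in which all 3 orco2 libraries lay below all 3 w1118 libraries. The scaffold gene Rpn6 had 86.6, 106 and 96.1 FPKM in orco2 and 84.4, 55.1 and 44.5 FPKM in w1118 (0.65 ± 0.27, adjusted p = 0.0919). In that gene w1118 replicate 1 lay near the orco2 libraries. The 3 calls became 0 without orco2 replicate 1, orco2 replicate 2 or w1118 replicate 3, 1 without orco2 replicate 3 and 6 without w1118 replicate 1, and 4.29% to 23.2% of all genes were called with 1 library left out. The fitted SE of the ubiquitous subunits had a median of 0.213 in this comparison, next to 0.161 between the genotypes in heads at day 40.

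In per01 guts the direction of the subunits depended on how libraries were scaled. With TMM, 4 of 32 rose against w1118 guts and 0 fell, a share close to that of all genes (9.66% rose and 9.33% fell), and the median was 0.41, against 0.0042 over all genes. With library totals alone, added after the data were seen, 4 of 32 fell and 0 rose, where 26.7% of all genes fell and 5.57% rose, so a smaller share of the subunits than of all genes fell. The median was then -0.18, against -0.53 over all genes, so the subunits lay above the median gene under both scalings. The TMM factors were 0.956, 0.70 and 0.64 for per01 libraries and 1.11 to 1.19 for the other guts. The 18 gut markers, mostly digestive enzyme genes, summed to 105306, 162779.9 and 198931 CPM in per01, 35328, 18464 and 27195 CPM in orco2 guts and 25109.5, 11756 and 11788 CPM in w1118 guts. In per01 against w1118, 11 of the 18 rose, and their part in the subunit levels was not tested.

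The 4 genes that rose with TMM were Prosbeta5, Prosalpha1, Prosbeta4 and Rpn12. Prosbeta5, whose site cuts after hydrophobic residues, had 93.7, 146 and 145 FPKM in per01 guts, against 75.0, 64.5 and 70.4 FPKM in w1118 guts (0.87 ± 0.22, adjusted p = 0.0272). Prosbeta4, its neighbour in the beta ring, had 96.9, 132 and 183 FPKM in per01 guts, against 82.6, 66.8 and 62.2 FPKM in w1118 guts (0.96 ± 0.26, adjusted p = 0.0357). In both genes replicate 1 was the lowest per01 library. Rpn12, a subunit of the cap's lid, had 65.6, 93.0 and 114 FPKM in per01 guts, against 53.4, 48.6 and 44.5 FPKM in w1118 guts (0.90 ± 0.25, adjusted p = 0.0421). Prosalpha1 had 8.38, 8.16 and 10.8 FPKM in per01 guts, against 2.97, 3.22 and 3.42 FPKM in w1118 guts (1.51 ± 0.37, adjusted p = 0.0272). All 3 per01 libraries exceeded all 3 w1118 libraries in these 4 genes and in 15 of the 32 in all, as in 16.0% of all genes. With library totals the 4 genes had log2 fold changes of 0.26 (Prosbeta5), 0.33 (Prosbeta4), 0.27 (Rpn12) and 0.92 (Prosalpha1), and none of them passed. The TMM calls were lost (0 members) without per01 replicate 2 or 3 or w1118 replicate 2 or 3, and became 7 without w1118 replicate 1 and 10 without per01 replicate 1, of which 4 were paralogues that fell. Fits without 1 library called 7.11% to 21.3% of all genes.

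Against orco2 guts, 0 of 32 ubiquitous subunits passed in per01 guts with TMM, and 4 had an unadjusted p under 0.05. DESeq2 called 2 of the 32 and limma-voom 0, where they called 34.2% and 27.8% of all genes. The median was 0.14, against 0.083 over all genes, of which 3.33% rose and 2.07% fell. In 6 of the 32 all per01 libraries lay above all orco2 libraries, next to 24.9% of all genes. With library totals alone 11 ubiquitous subunits fell, next to 13.0% of all genes, and the median was -0.50, against -0.56 over all genes. Each of the 3 gut groups enters 2 of the gut comparisons, which therefore share libraries.

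**Figure D3:**
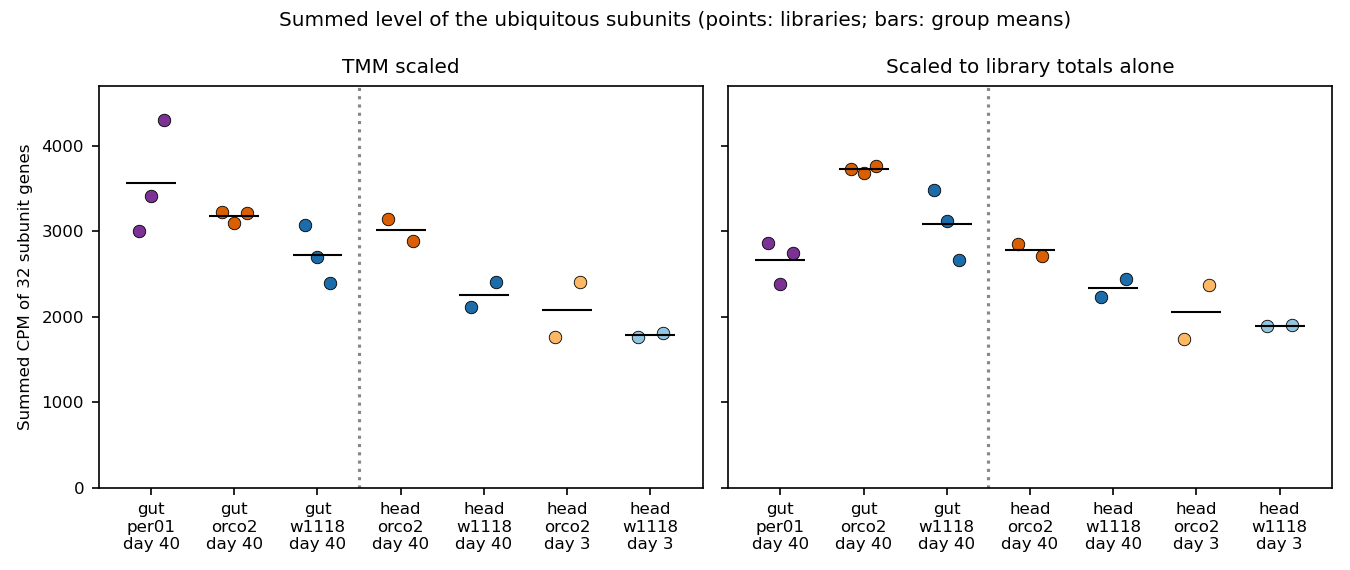
Summed CPM of the 32 ubiquitous subunits in each library (points) with group means (bars), scaled with TMM within each tissue (left) or to library totals alone (right). The per01 libraries hold the highest gut value, 4296 CPM, on the left and 3 of the 4 lowest gut values on the right, whereas the orco2 heads at day 40 are the highest heads in both. Levels of guts and heads were scaled separately on the left.

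Among the partner genes in guts, 3 of 10 rose in orco2 against w1118 (PI31, Uch-L5 and Sem1) and 1 in per01 (Sem1), and 0 fell. Of all genes, 11.5% rose in orco2 and 9.66% in per01, and 15.1% and 9.33% fell. Sem1, a small cap subunit, had 41.6, 66.8 and 68.3 CPM in per01, 41.8, 37.4 and 37.1 CPM in orco2 guts and 25.9, 21.9 and 21.2 CPM in w1118 guts (1.36 ± 0.24, adjusted p = 0.00974 for per01, and 0.75 ± 0.23, adjusted p = 0.0457 for orco2). All libraries of both mutants lay above every w1118 library. PI31, a proteasome regulator that flies need in sperm development, had 121, 179 and 144 CPM in orco2, against 55.1, 71.2 and 45.4 CPM in w1118 (1.37 ± 0.26, adjusted p = 0.0101). PI31 fell in per01 against orco2 guts (-1.07 ± 0.25, adjusted p = 0.0497), where it had 83.8, 56.6 and 72.2 CPM in per01. Uch-L5, a deubiquitinase gene of the cap, had 64.9, 39.0 and 40.2 CPM in per01 guts, 85.2, 128 and 108 CPM in orco2 guts and 33.3, 68.2 and 30.3 CPM in w1118 guts (1.28 ± 0.37, adjusted p = 0.0363 for orco2 against w1118). In both genes the 3 orco2 libraries were highest, and per01 replicate 1 and w1118 replicate 2 were the highest of their groups. The same libraries were highest by their summed testis markers, which had 4570.4, 823 and 784 CPM in per01 guts, 6863, 12127 and 9524 CPM in orco2 guts and 1561, 3755 and 1001 CPM in w1118 guts, and the part of testis RNA in PI31 and Uch-L5 was not tested. Of the 6 Cnc pathway genes, 3 fell in orco2 guts (Keap1, cnc and ref(2)P) and 0 rose, where 15.1% of all genes fell and 11.5% rose. Keap1, which encodes the repressor of Cnc, had 11.0, 9.74 and 10.5 CPM in orco2, against 38.4, 40.7 and 45.5 CPM in w1118 (-1.99 ± 0.30, adjusted p = 0.00543), and it rose in per01 against orco2 (1.32 ± 0.29, adjusted p = 0.0415). Of the 9 ubiquitin and segregase genes, Uba1, the ubiquitin-activating enzyme gene, fell in per01 (-0.91 ± 0.19, adjusted p = 0.0176) and in orco2 (-0.78 ± 0.19, adjusted p = 0.0234), and Ufd1 rose in orco2 (0.79 ± 0.24, adjusted p = 0.0411).

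Set against heads of the same genotype at day 40, ubiquitous subunits were more abundant in guts, by a median of 0.61 in orco2 and 0.53 in w1118, while the median gene was itself higher by 0.34 in orco2 and 0.36 in w1118. In orco2 19 of 32 rose and 0 fell, next to 39.7% and 26.3% of all genes, and in w1118 18 rose and 0 fell, next to 34.7% and 21.1%. Rpn8, the partner of Rpn11, had 91.1, 99.3 and 96.1 FPKM in orco2 guts, against 47.8 and 47.8 FPKM in orco2 heads (1.00 ± 0.15, adjusted p = 0.000576). In w1118 it had 75.1, 95.7 and 86.9 FPKM in guts, against 37.3 and 41.1 FPKM in heads (1.13 ± 0.15, adjusted p = 0.000469). Prosalpha2 had 131, 142 and 137 FPKM in w1118 guts, against 65.1 and 74.3 FPKM in w1118 heads (0.97 ± 0.13, adjusted p = 0.000526). The tissues did not overlap in these genes. The values come from 1 fit over both tables, on 18311 shared features, so that tissue and table cannot be told apart. Over all members, 21 passed in orco2 without orco2 head replicate 2, against 34 with it, and 19 in w1118 without w1118 head replicate 1, against 32 with it. Of all genes, 48.8% were called in the first case and 38.2% in the second, against 66.0% and 55.8% with every library.

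Most of the testis paralogues were nearly silent in heads, where Rpt4R (3.92 to 5.78 FPKM) and Prosalpha1R (0.505 to 3.39 FPKM) had the highest medians. All 16 paralogues together summed to 11.7 and 11.8 CPM in orco2 heads at day 40, 16.2 and 14.5 CPM in w1118 heads at day 40, 12.5 and 12.7 CPM in orco2 heads at day 3 and 13.9 and 12.3 CPM in w1118 heads at day 3. Between 8 and 12 of the 16 had any count in a given head. Prosbeta4R1 and Prosbeta4R2 had 0 counts in all 8, which allows at most 0.0122 CPM over the 8 libraries at 3 counts, counting error only. Only 7 passed the filter on low counts in heads (Prosalpha1R, Prosalpha4T1, Prosalpha6T, Prosbeta2R2, Rpt3R, Rpt4R and Rpt6R), and 9 were not tested there (Prosalpha3T, Prosalpha4T2, Prosbeta2R1, Prosbeta4R1, Prosbeta4R2, Prosbeta5R1, Prosbeta5R2, Rpn12R and Rpn13R).

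The paralogue with most head counts was Rpt4R (3L, 11941912 to 11943485, plus strand), a duplicate of the ATPase gene Rpt4. It had 162 and 186 counts in orco2 heads at day 40, 301 and 263 counts in w1118 heads at day 40, 204 and 219 counts in orco2 heads at day 3 and 218 and 217 counts in w1118 heads at day 3. Per length this came to 3.92 and 4.37 FPKM in orco2 and 5.78 and 5.07 FPKM in w1118 heads at day 40, with both orco2 libraries lower (-0.39 ± 0.18, adjusted p = 0.198). Rpt3R, the duplicate of Rpt3, had 25 and 29 counts in orco2 heads at day 40, 109 and 59 counts in w1118 heads at day 40, 55 and 15 counts in orco2 heads at day 3 and 91 and 86 counts in w1118 heads at day 3, and its exons overlap the gene Alg12 on the other strand. The orco2 heads lay below w1118 heads at both ages, without a call (-1.33 ± 0.57, adjusted p = 0.166 at day 40, and -1.14 ± 0.56, adjusted p = 0.285 at day 3).

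Prosbeta2R2, a duplicate of the gene for a cutting subunit, had 11 and 13 counts in orco2 heads at day 40, 27 and 29 counts in w1118 heads at day 40, 27 and 24 counts in orco2 heads at day 3 and 29 and 26 counts in w1118 heads at day 3. Both orco2 libraries at day 40 were the lowest of the 8. Prosalpha4T1 had 12 and 2 counts in orco2 heads at day 40, 20 and 26 counts in w1118 heads at day 40, 2 and 10 counts in orco2 heads at day 3 and 33 and 26 counts in w1118 heads at day 3. Rpt6R had 12 and 14 counts in orco2 heads at day 40, 16 and 2 counts in w1118 heads at day 40, 32 and 28 counts in orco2 heads at day 3 and 8 and 11 counts in w1118 heads at day 3. Prosalpha4T1 was lower in both orco2 libraries at each age, without a call (-2.03 ± 0.93, adjusted p = 0.253 at day 3). Rpt6R was higher in both orco2 heads at day 3 (1.87 ± 0.81, adjusted p = 0.23). Prosalpha6T had 2 and 10 counts in orco2 and 4 and 0 counts in w1118 heads at day 3, which overlapped (1.76 ± 1.30, adjusted p = 0.478). The 2 highest and 2 lowest interactions of age with genotype were also among these low counts: Prosalpha1R (1.06 ± 0.63, adjusted p = 0.618), Prosalpha4T1 (0.64 ± 1.31, adjusted p = 0.906), Rpt6R (-1.04 ± 1.17, adjusted p = 0.804) and Prosalpha6T (-2.45 ± 1.70, adjusted p = 0.667). In all, 5 of the 7 tested lay below w1118 in both orco2 libraries at day 40, as 32.9% of all genes did, and 0 passed there by edgeR (1 at an unadjusted p under 0.05, 0 by DESeq2 and 0 by limma-voom). Among the 7, Prosalpha1R was called in 1 head comparison. It had 89 and 73 counts in orco2 heads at day 40 and 14 and 25 at day 3, which is 3.39 and 2.70 FPKM in orco2 heads at day 40, against 0.505 and 0.982 FPKM at day 3 (2.04 ± 0.46, adjusted p = 0.0163). Of the 31 testis markers 3 (Mst84Da, comr and nht) had no count in any head, and 25 had a median under 1 CPM in heads, while 92.3% of their head counts fell on bol. The other 5 had a median above 1 CPM there and counts in all 8 heads: mia (92 to 493), twe (90 to 167), S-Lap1 (50 to 98), betaTub85D (27 to 89) and topi (7 to 170). Of those under 1 CPM, dj, Mst87F, sa and aly each had at most 8 counts in any head library. Others had counts in all 8 heads: can (4 to 40), Mst77F (10 to 45), fzo (4 to 26), vas (2 to 36) and tomb (4 to 16). The part of testis RNA in the head values was not tested.

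In guts all 16 paralogues were read in all 9 libraries. Their summed level was 235, 51.4 and 30.6 CPM in per01, 372, 632 and 493 CPM in orco2 guts and 88.9, 221 and 58.6 CPM in w1118 guts. Every orco2 library lay above every library of the other genotypes. Within per01 replicate 1 was highest, and within w1118 replicate 2, and the libraries of per01 differed up to 7.67-fold.

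Rpt6R, a duplicate of the ATPase gene Rpt6, and Prosbeta5R1, a duplicate of the cutting subunit gene Prosbeta5, had the most gut counts. Rpt6R had 625, 58 and 38 counts in per01, 2215, 2835 and 2614 counts in orco2 and 378, 693 and 165 counts in w1118 guts. Prosbeta5R1 had 795, 126 and 65 counts in per01, 1815, 2460 and 2335 counts in orco2 and 509, 1291 and 225 counts in w1118 guts. Prosbeta4R2, whose partner is the beta ring gene Prosbeta4, had 768, 75 and 63 counts in per01, 1665, 2454 and 2163 counts in orco2 and 361, 1209 and 220 counts in w1118 guts, some of which could belong to Or23a, since the exons of the 2 genes overlap on 1 strand. In these 3 genes the orco2 libraries were the 3 highest, and the same was true of 14 of the 16. The share of all genes with this order was not counted. All orco2 guts lay above all w1118 guts in 35.4% of all genes. Rpn12R, a duplicate of the lid gene Rpn12, had 704, 64 and 63 counts in per01, 1772, 2567 and 2225 counts in orco2 and 316, 776 and 80 counts in w1118 guts. Prosalpha6T (2L, 13232039 to 13233058, plus strand), the sperm gene named above, had 864, 170 and 64 counts in per01, 1468, 2087 and 1940 counts in orco2 and 421, 938 and 119 counts in w1118 guts. Prosalpha4T2, a duplicate of Prosalpha4, had 613, 125 and 59 counts in per01, 1438, 2208 and 1920 counts in orco2 and 383, 947 and 168 counts in w1118 guts. In these genes per01 replicate 1 and w1118 replicate 2 came closest to the orco2 guts.

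In orco2 guts 15 of the 16 had every library above w1118, as 35.4% of all genes did, yet none of the 16 passed the edgeR test between orco2 and w1118 guts and 9 had an unadjusted p under 0.05. The median log2 fold change over the 16 was 2.30, against 0.058 over all genes, and the fitted SE had a median of 0.863. Prosbeta5R2 came nearest, with 11.6, 19.1 and 13.8 FPKM in orco2 and 3.05, 3.77 and 1.64 FPKM in w1118 guts (2.39 ± 0.79, adjusted p = 0.0544). The largest was Prosalpha4T1, with 14.4, 24.0 and 19.3 FPKM in orco2 and 1.82, 3.71 and 2.42 FPKM in w1118 (2.86 ± 1.04, adjusted p = 0.0678). Prosalpha1R was the exception, with 2.22, 1.44 and 1.38 FPKM in orco2 and 2.0, 2.47 and 2.89 FPKM in w1118 (-0.55 ± 0.38, adjusted p = 0.275). The call depended on the tool: DESeq2 called 10 of the 16 higher in orco2 and limma-voom called 15, and edgeR fitted on the 6 libraries of these groups alone called 10. Of all genes, 26.5% were called higher by DESeq2, 26.6% by limma-voom and 19.4% by that edgeR fit, against 11.5% in the test above.

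Between per01 and w1118 guts 0 of the 16 passed by edgeR, with a median of -0.084, 1 at an unadjusted p under 0.05, 1 called by DESeq2 and 0 by limma-voom. The nearest was Prosalpha1R, with 4.11, 5.96 and 6.21 FPKM in per01 and 2.0, 2.47 and 2.89 FPKM in w1118 (1.14 ± 0.38, adjusted p = 0.0694). Between per01 and orco2 guts 15 of 16 were lower in per01, with a median of -2.25, and in 14 all 3 per01 libraries lay below all 3 orco2 libraries, as 29.6% of all genes did. Of the 16, 0 fell by edgeR, while Prosalpha1R rose (4.11, 5.96 and 6.21 FPKM in per01, against 2.22, 1.44 and 1.38 FPKM in orco2, 1.69 ± 0.39, adjusted p = 0.0463). DESeq2 called 12 members lower and limma-voom 13, next to 20.8% and 18.7% of all genes, against 2.07% by edgeR. Without per01 replicate 1, 21 members passed by edgeR, 15 of them lower, where 37.8% of all genes passed and 20.9% were lower. Without any 1 of the other 5 libraries 0 passed, and 0.139% to 0.636% of all genes.

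Markers of the testis moved with these genes, except Prosalpha1R, in the same libraries. Prosalpha1R was highest in per01 replicates 2 and 3, with 5.68 and 5.92 CPM, where the summed testis markers were lowest. Its values are therefore not read as those of a testis gene. The sums of the 31 testis markers, given above, were highest in the 3 orco2 guts, then in per01 replicate 1 and w1118 replicate 2. Of the 30 tested, 6 rose in orco2 against w1118, next to 11.5% of all genes. For 27 of the 31 the 3 highest gut libraries were the 3 of orco2, an order that was not counted over all genes. Per 100 CPM of these markers, the paralogues without Prosalpha1R had 5.05, 5.55 and 3.15 CPM in per01, 5.39, 5.20 and 5.16 CPM in orco2 guts and 5.57, 5.83 and 5.58 CPM in w1118. The ratio thus stayed between 5.05 and 5.83 in 8 of the 9 guts, with per01 replicate 3 lower. The 18 male accessory gland markers, from another organ of the male reproductive tract, summed to 6250.3, 18646 and 627 CPM in per01, 6570.4, 10637 and 8836 CPM in orco2 guts and 96.2, 32.3 and 300.1 CPM in w1118. Of the 17 tested, 14 rose in orco2 and 12 in per01, next to 11.5% and 9.66% of all genes. The part of reproductive tract RNA in the paralogue levels was not tested.

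**Figure D4:**
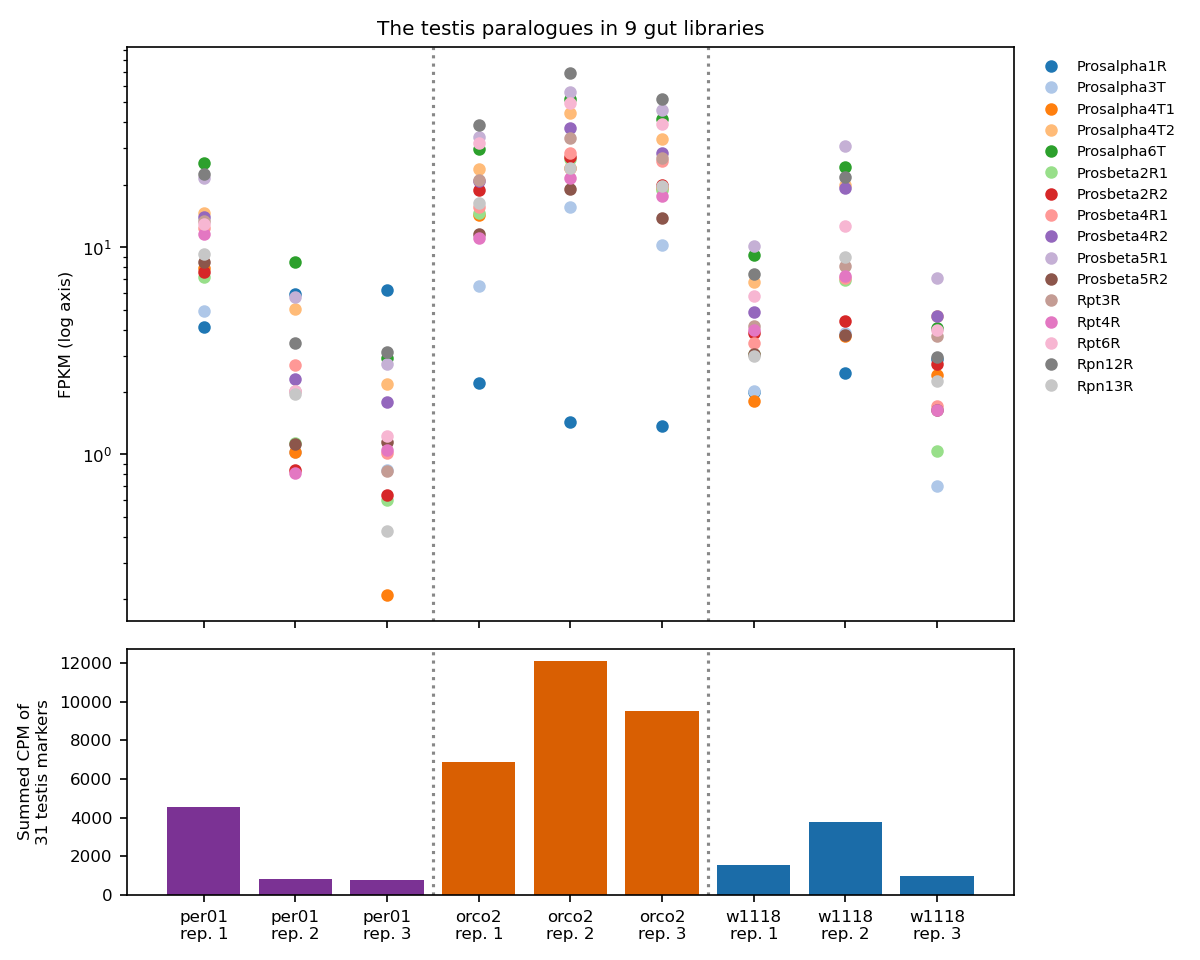
Level of the 16 testis paralogues in each gut library, as FPKM on a log axis (top), above the summed CPM of 31 testis markers in the same libraries (bars, from 0). The 3 orco2 libraries are the highest for 14 of the 16 paralogues and in the bars, and per01 replicate 1 and w1118 replicate 2 stand above their groups for 15 of the 16 and in the bars. The shares of all genes with these orders were not counted.

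Per length, all paralogues but Prosalpha1R stood closest to the level of their ubiquitous partners in orco2 guts. Over the 15 pairs without Prosalpha1R, the median ratio of FPKM was 5.97% in per01, 36.7% in orco2 and 8.54% in w1118 guts. In orco2 guts it ranged from 9.88% for Prosalpha3T against Prosalpha3 to 101% for Rpn12R against Rpn12. In heads the median was 0.0638% in orco2 and 0.284% in w1118 at day 40, and 0.378% and 0.173% at day 3. Among these 15 pairs Rpt4R gave the highest ratio in each head group, 7.21% of Rpt4 in orco2 and 13.8% in w1118 at day 40. Prosalpha1R, whose values are uncertain, averaged 56.6% of Prosalpha1 in orco2 and 54.5% in w1118 heads at day 40. In guts it averaged 59.8% in per01, 19.2% in orco2 and 76.2% in w1118. As a sum, the 16 paralogues reached 7.82, 1.51 and 0.712% of the CPM of the 32 ubiquitous subunits in per01, 11.5, 20.4 and 15.3% in orco2 and 2.89, 8.18 and 2.44% in w1118 guts.

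**Figure D5:**
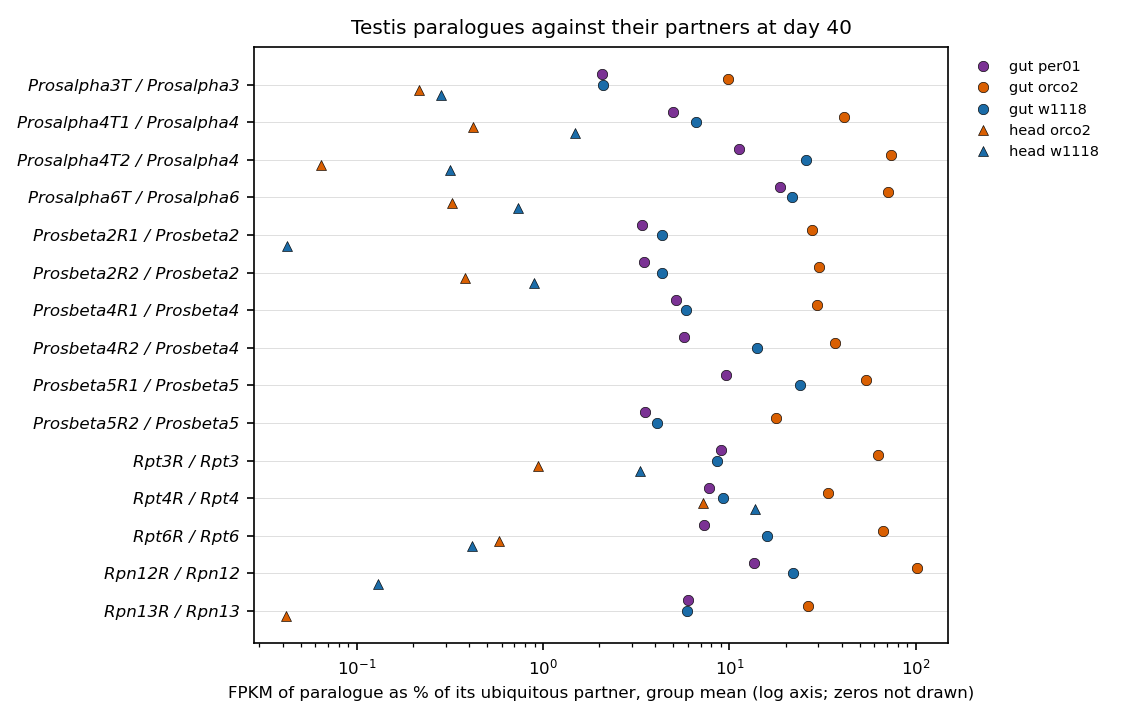
FPKM of each testis paralogue as a percentage of its ubiquitous partner at day 40, group means on a log axis, with circles for guts and triangles for heads (ratios of 0 are not drawn). In all 15 pairs the orco2 guts are highest, from 9.88 to 101%, and among heads only Rpt4R and, in w1118, Rpt3R lie above 2%.

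Guts had more of the paralogues than heads of the same genotype in 15 of 16 in orco2, next to 39.7% of all genes, and in 14 of 16 in w1118, next to 34.7%, all called by edgeR, and 0 were lower with a call. Of the 16, 6 had 0 counts in orco2 heads and 5 in w1118 heads. Paralogues with too few counts to test in heads passed the count filter of this fit only through guts. For them a higher gut was all but fixed beforehand, so these counts are no fair match to the shares of all genes. With genes at 0 in heads set to their bound, the median log2 fold change over the 16 was 8.52 in orco2 and 5.94 in w1118. The FPKM that follow are scaled over both tissues together. Prosbeta2R2 had 24.4, 35.0 and 25.8 FPKM in orco2 guts, against 0.278 and 0.323 FPKM in orco2 heads (6.55 ± 0.38, adjusted p = 1.51e-05). In w1118 it had 4.35, 4.86 and 2.99 FPKM in guts, against 0.546 and 0.590 FPKM in heads (2.84 ± 0.31, adjusted p = 0.000215). Rpt3R had 27.3, 43.6 and 34.8 FPKM in orco2 guts, against 0.574 and 0.654 FPKM in orco2 heads (5.84 ± 0.54, adjusted p = 7.17e-05). The tissues did not overlap in these. Prosbeta5R2, a second duplicate of Prosbeta5, had 15.1, 24.6 and 17.7 FPKM in orco2 guts and 0 counts in both orco2 heads, which is at least 592-fold higher when 3 counts over the 2 heads are taken as the floor. In w1118 guts it had 3.44, 4.16 and 1.79 FPKM and again 0 counts in both heads, at least 119.9-fold higher. By the same floor Prosbeta4R2 was at least 1249-fold higher in orco2 guts and 438-fold in w1118 guts. Prosalpha4T2 had 30.9, 57.5 and 43.0 FPKM in orco2 guts, against 2 and 1 counts in orco2 heads. The genes without a call were Prosalpha1R in both genotypes and, in w1118, Rpt4R (-0.073 ± 0.54, adjusted p = 0.918), which had 4.49, 8.0 and 1.81 FPKM in w1118 guts and 5.34 and 4.70 FPKM in w1118 heads.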

How the data were processed

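Polyadenylated RNA was sequenced from 8 head and 9 gut libraries. The deposited count tables hold read counts per gene; fastp, HISAT2, featureCounts and the dm6 build are named per the submitters' processing notes, without versions, and the annotation release, strand and multi-mapping settings are not given in the sources used here. Between 60.3% and 75.5% of counts from 1 to 20 were even numbers, so floors may be too low, and they cover counting error only.

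From the counts, CPM used TMM factors, and FPKM divided CPM by the exon length of Ensembl release 115 (BDGP6.54, dm6 coordinates). edgeR 4.0.16 (quasi-likelihood test, one mean per group, filterByExpr with a minimum count of 10) in R 4.3.3 tested 12243 genes in heads, 13453 in guts and 14154 in the joint fit of day 40 orco2 and w1118 libraries, with Benjamini-Hochberg adjustment at 0.05 over all genes tested; SE is the log2 fold change divided by the root of F. Alternatives were DESeq2 1.42.0, limma 3.58.1 voom, other scalings, no count filter, fits on the compared groups alone, a replicate block and leaving out each library. Fits were also run on simulated data, where the gut fits recovered far fewer of the changes put in than the head fits did. That simulation held 200 changed genes, whereas the 3 gut comparisons called 726 to 3573 genes, so its recovery need not hold for these data. A gene without a call in guts may still differ.

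Members and gene lists were chosen with earlier results of these data known. By rule, up to 4 called members a direction with the smallest p were named, or the 2 highest and 2 lowest without calls, the 6 paralogues with most counts a tissue and 2 called genes of each other list. Other genes named were chosen after their values were seen. No sequence is shown.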

Additional observations from a re-analysis of the deposited data

Results flagged for a closer look

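In 6 of the 39 members tested in both tissues every orco2 library lay on one side of every w1118 library in guts and on the other side in heads at day 40, as in 13.0% of the 10445 genes tested in both. Over both directions the 15.4% of members is near the share of all genes, but the directions differed. Higher in guts and lower in heads were 5 members, all of them among the 7 paralogues tested in heads, and 532 of all genes. The other way went 1 member, Rpt3, and 828 of all genes. Whether the tissues differed in this was not tested. At day 40, Prosalpha4T1 had a log2 fold change of orco2 over w1118 of 2.86 in guts and -1.39 in heads, Rpt3R of 2.36 in guts and -1.33 in heads, and Prosbeta2R2 of 2.59 in guts and -0.91 in heads. Prosalpha6T had 1.71 in guts and -0.68 in heads, and Rpt4R had 1.97 in guts and -0.39 in heads. At day 3 the head values were -2.03 for Prosalpha4T1 and -1.14 for Rpt3R. Rpt3, the single ubiquitous subunit among them, had -0.47 in guts and 0.45 in heads at day 40. None of these 6 members passed the edgeR test between orco2 and w1118 in either tissue.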

How the results depend on the processing

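The median log2 fold change of the ubiquitous subunits kept its sign under every alternative in 7 of the 10 comparisons: it ran from 0.42 to 0.82 with age in orco2 heads, from 0.22 to 0.46 with age in w1118 heads, from 0.27 to 0.54 between genotypes in heads at day 40 and from 0.058 to 0.32 in orco2 guts. Without orco2 day 3 replicate 2 it was -0.055 between genotypes at day 3, and over leave-outs it ran from 0.023 to 0.51 for the interaction. With library totals alone, an alternative chosen after seeing the data, it was -0.18 in per01 against w1118 guts and -0.50 in per01 against orco2 guts, where 4 and 11 members fell; for per01 against w1118 it was 0.18 with the compared groups alone.

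Counts of members called moved more, and so did the share of all genes called by the same fit, which is given in parentheses. Between genotypes at day 40 in heads, 2 members passed (13.0%), against 14 with DESeq2 (18.8%), 5 with limma-voom (14.6%), 4 with DESeq2's size factors (13.0%), 0 with library totals (17.4%), 9 without the count filter (11.5%) and 25 with the compared groups alone (27.1%). At day 3, 0 passed (7.28%), against 1 with DESeq2 (12.3%) and 1 without the count filter (7.35%). With the compared groups alone, 18 passed with age in w1118 heads (33.1%, against 15.8%) and 10 in orco2 heads (11.0%, against 24.2%). In orco2 guts the 3 calls (26.6%) became 20 with DESeq2 (48.7%), 5 with its size factors (27.6%), 19 with limma-voom (43.7%), 1 without the filter (20.2%) and 11 with the compared groups alone (41.2%). In per01 against w1118 guts (19.0%), 10 passed with DESeq2 (32.8%) and 0 with the compared groups alone (11.3%). In per01 against orco2 guts (5.40%), 15 passed with DESeq2, 12 of them lower (34.2%), 14 with limma-voom, 13 of them lower (27.8%), 0 without the filter (3.22%) and 2 with the compared groups alone (18.0%). In w1118 gut against head (55.8%), 19 passed with the compared groups alone (41.5%). The cause of these shifts was not tested. Without the 2 head libraries with alphaTry, chosen after seeing the data, 20 passed between genotypes at day 3 (30.0%; median 0.41), 30 at day 40 (28.1%), 7 with age in w1118 (22.3%) and 2 in the interaction (4.82%), and the median with age in orco2 was 0.42.

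Leaving out 1 library at a time gave 0 to 17 calls between genotypes in heads at day 3 (2.14 to 25.1% of all genes), 0 to 0 at day 40 (2.47 to 5.67%), 0 to 1 with age in w1118 (3.44 to 7.24%) and 1 to 32 with age in orco2 (5.93 to 34.6%), 0 to 2 for the interaction (0 to 3.14%), 0 to 6 in orco2 guts (4.29 to 23.2%), 0 to 10 in per01 against w1118 guts (7.11 to 21.3%), 0 to 21 in per01 against orco2 guts (15 of the 21 lower; 0.139 to 37.8%), and 19 to 35 and 21 to 33 for gut against head in w1118 (38.2 to 62.0%) and orco2 (48.8 to 60.4%). The interaction of Prosalpha4T1 ran from -1.08 without orco2 day 40 replicate 1 to 2.32 without orco2 day 3 replicate 2, with -0.12 without orco2 day 3 replicate 1, and that of Rpt6R from -1.85 without w1118 day 40 replicate 2 to 1.05 without w1118 day 40 replicate 1.

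With the replicate number as a block, 0 members passed between genotypes in heads at day 40 (10.1%), 1 with age in w1118 (13.1%), 18 with age in orco2 (21.2%), and 0 in each of the 3 gut comparisons (15.4, 9.62 and 0.312%). Same-numbered libraries share only a number: the correlation of their deviations was between -0.072 and 0.02 over the compared head groups and between -0.40 and 0.15 in guts. At this depth 9 paralogues had too few counts in heads to test.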

Other observations

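The genes that work with the proteasome were also set against heads of the same genotype at day 40, with the edgeR test of the joint fit. Of 10 partner and assembly genes, 6 were higher in orco2 guts and 4 in w1118 guts, where 39.7% of all genes were higher in orco2 and 34.7% in w1118, and 0 were lower. Usp14, the deubiquitinase that binds the cap, was higher in guts of orco2 (1.11 ± 0.16, adjusted p = 0.000471) and of w1118 (0.77 ± 0.16, adjusted p = 0.00364). The cap deubiquitinase gene Uch-L5 was higher in guts of orco2 (3.41 ± 0.40, adjusted p = 0.000193) and of w1118 (1.99 ± 0.37, adjusted p = 0.00239). Uch-L5R, its duplicate, had 0 counts in all 8 heads, so it entered this fit only through guts, and is given no fold. The F-box gene ntc, which flies need for sperm development, was higher in guts of orco2 (3.57 ± 0.45, adjusted p = 0.00025) and of w1118 (1.61 ± 0.40, adjusted p = 0.00974). The gene ntc had 50.6, 16.4 and 15.2 CPM in per01 guts, 65.6, 111 and 86.8 CPM in orco2 guts and 21.3, 44.3 and 18.2 CPM in w1118 guts, and the 9 libraries stood in the same order as by their summed testis markers. The part of those markers in the gut levels of ntc and Uch-L5 was not tested. Of the 6 Cnc pathway genes, 1 rose (rngo) and 1 fell (Keap1) in orco2 guts, while 3 rose in w1118 guts. Keap1 was lower in orco2 guts than in orco2 heads (-1.25 ± 0.17, adjusted p = 0.000376) and higher in w1118 guts than in w1118 heads (0.89 ± 0.18, adjusted p = 0.00329), and the orco2 guts were lower than the w1118 guts as reported above. The polyubiquitin gene Ubi-p63E was higher in guts of orco2 (1.33 ± 0.19, adjusted p = 0.000519) and of w1118 (0.75 ± 0.19, adjusted p = 0.01).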
